A study of Mus musculus with 12 samples.

Results

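The signal transducer STAT3, its inhibitors and its cytokine receptors were followed in mouse ear skin after injection of IL-17A, IL-36γ or both. The group holds 10 genes, which were chosen by name from a fixed list and matched by their symbols to the rows of the count table: Stat3, the inhibitor genes Socs1, Socs3 and Cish, and the receptor genes Osmr, Il6ra, Il6st, Il22ra1, Il20ra and Il20rb. All 10 were found among the 50684 genes counted, and all 10 passed the filter on low counts, which left 19408 genes for testing. Ear pinnae of C57BL/6 mice, 8 weeks old, were injected intradermally with 5 µl of PBS, with 1 µg of IL-17A, with 1 µg of IL-36γ or with IL-17A + IL-36γ, 1 µg of each. The treatment ran over consecutive days, and RNA of ears taken after 4 days was sequenced. Of 5 mice per group in the study, 3 were sequenced, giving 12 libraries in 4 groups. The cytokines were given as recombinant proteins to animals that carried no transgene, and the tissue was whole ear, so that fewer cells of a type and less RNA per cell cannot be told apart.

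Cytokines of the IL-6 family bind a specific receptor chain together with the shared chain gp130, encoded by Il6st, while oncostatin M signals through the chain encoded by Osmr. IL-22, IL-20 and related cytokines of the IL-10 family use chains encoded by Il22ra1, Il20ra and Il20rb, which in skin are known above all from keratinocytes. Both families activate Janus kinases, which phosphorylate STAT3. STAT3 then enters the nucleus and raises transcription of genes that include Socs3, whose protein binds the receptor and the kinase and stops the signal.

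The libraries held between 25293468 and 34759293 counts, and the fit estimated a common biological coefficient of variation of 14.22%. Marker genes of keratinocytes were present in all 12 libraries, with a summed level of 16952 to 22701 CPM (CPM are counts scaled to a common library size, here with TMM factors) in PBS ears. The summed skeletal muscle markers of the 3 PBS libraries spread widely, from 317 to 2848 CPM with a median of 2473 CPM. Their summed neutrophil markers also did, from 17.5 to 94.1 CPM with a median of 22.6 CPM. The number of genes of the whole table called changed by IL-17A rested on single libraries, with 407 genes in all 12 libraries, 11 without PBS replicate 3 and 913 without PBS replicate 1.

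Stat3 and Socs3 were higher after IL-36γ and after the combination, and Socs3 was also higher after IL-17A. The combination in addition raised Osmr and lowered Il20ra and, close to the threshold, Il6ra. Cish was lower after IL-17A. Socs1, Il6st, Il22ra1 and Il20rb did not pass the test against PBS in any of the 3 cytokine groups. A gene is said to rise or fall where the quasi-likelihood test of edgeR gave a Benjamini-Hochberg adjusted p-value below 0.05 over all genes tested, and it is called changed where the absolute log2 fold change was in addition above 1.

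By this test 2 of the 10 genes passed after IL-17A (1 up, 1 down), where 10.9% of all genes tested passed. After IL-36γ 2 of the 10 passed, both up, beside 28.4% of all genes. In the combination 5 of the 10 passed (3 up, 2 down), beside 44.6% of all genes. These shares lie near those of all genes, so that the counts by themselves say nothing about the list, and the values of the single genes carry the description. With the fold change threshold the shares of all genes were 2.1%, 7.1% and 13.4% in the same order, and the only member called was Socs3 in the combination. Libraries of the compared groups did not overlap for 33.6%, 41.7% and 52.5% of all genes in that order. The median log2 fold change of the 10 genes was -0.02, 0.14 and -0.03 in the same 3 comparisons, beside 0.04, -0.02 and -0.03 for all genes.

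**Figure D1:**
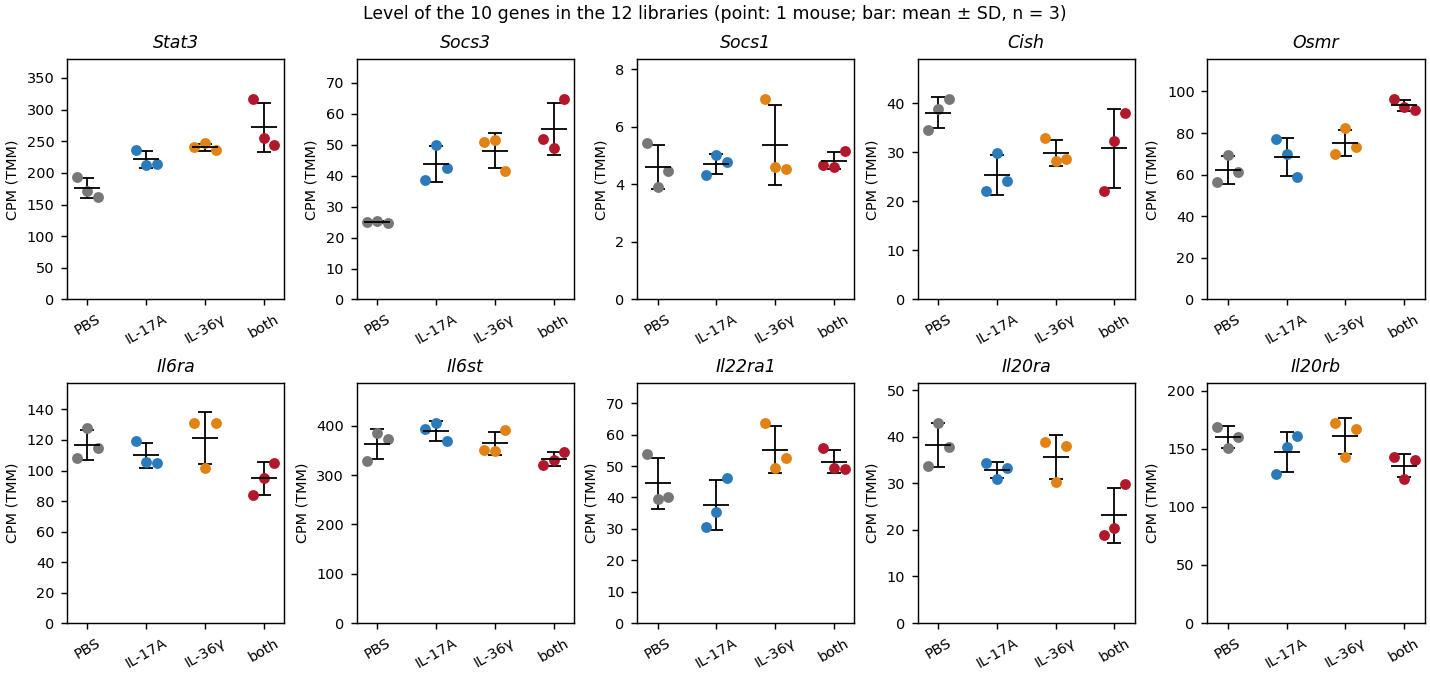
Level of the 10 genes in CPM after TMM scaling (linear axis from 0, one panel per gene) in the 4 groups; each point is 1 mouse and the bar is the mean ± SD of 3 mice. The 3 PBS libraries of Socs3 lie between 24.8 and 25.4 CPM, below all 9 cytokine libraries, while the points of Socs1 lie between 3.91 and 6.95 CPM in all groups.

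The regions before the start sites of Stat3 and Socs3 are shown. For Cish a stretch of 30 bases is shown, most of which lies from the start site on. The reason is that STAT proteins bind the palindrome TTCNNNGAA, with TTCCNGGAA as its stricter form. These 3 genes were taken because they encode the transducer and the inhibitors that passed the test. The sequences are those of RefSeq on GRCm38.p6, read 5′ to 3′ on the strand of the gene, with the start site as base 1, and capitals mark each match to TTCNNNGAA.
Stat3, chr11:100939541-100939790, minus strand, bases -250 to -1: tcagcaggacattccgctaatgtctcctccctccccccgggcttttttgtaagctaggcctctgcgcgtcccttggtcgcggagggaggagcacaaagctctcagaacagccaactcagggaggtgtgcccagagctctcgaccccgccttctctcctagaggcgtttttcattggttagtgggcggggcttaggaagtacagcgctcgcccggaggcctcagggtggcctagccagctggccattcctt
Socs3, chr11:117969367-117969616, minus strand, bases -250 to -1: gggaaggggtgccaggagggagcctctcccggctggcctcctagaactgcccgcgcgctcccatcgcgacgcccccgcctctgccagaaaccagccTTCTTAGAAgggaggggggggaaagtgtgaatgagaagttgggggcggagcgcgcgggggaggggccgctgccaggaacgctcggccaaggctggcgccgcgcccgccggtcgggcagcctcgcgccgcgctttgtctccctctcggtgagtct
Cish, chr9:107296654-107296683, plus strand, bases -5 to 25: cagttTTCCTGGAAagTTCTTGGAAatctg

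Windows of 300 bases, 250 before the start site and 50 from it, were found for all 10 genes. Since the palindrome reads the same on both strands, 1 search covers both. Socs3 held 1 match, TTCTTAGAA, which begins at base -154. Cish held 2 matches, TTCCTGGAA at base 1 and TTCTTGGAA at base 12, of which the first is also the stricter form. The windows of Stat3 and the other 7 genes held no match, which says only that these letters are not in these windows. Of 32851 RefSeq windows of this length, 8.3% held TTCNNNGAA and 1.15% held TTCCNGGAA. The start sites of RefSeq lie 681 bases inside the GENCODE gene of Socs3 and 633 bases inside that of Cish. They lie 656 bases inside that of Osmr and 315 bases inside that of Il20rb. These genes thus also have annotated starts further upstream, outside the windows searched. For Socs3 the bases from the RefSeq start on did not match a GENCODE transcript of the gene. The same held for Il22ra1, where the RefSeq start lies shortly before the GENCODE gene, so that the first bases could not match.

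Stat3 (ENSMUSG00000004040, chr11:100885098-100939540, GRCm38) encodes the transducer itself. Its level was 193, 172 and 163 CPM in the 3 PBS ears, 237, 213 and 215 CPM after IL-17A, 240, 247 and 235 CPM after IL-36γ, and 316, 255 and 244 CPM after the combination. Every cytokine library lay above every PBS library, and the libraries of the combination overlapped those of IL-36γ. The rise over PBS passed with IL-36γ, at 0.45 on the log2 scale (adjusted p = 0.00616), and with both cytokines, at 0.63 (adjusted p = 0.000411), and IL-17A alone missed the threshold at 0.33 (standard error 0.10, adjusted p = 0.0503). That last value moved with the libraries included, to an adjusted p of 0.0176 without PBS replicate 1, of 0.0299 without combination replicate 1 and of up to 0.238 in the other cases with a library left out. The likelihood ratio test of DESeq2 gave it an adjusted p of 0.00643. Exons of Stat3 share 72 bases with Stat5a on the opposite strand, and whether reads were counted by strand is not given in the sources used here.

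Socs3 (ENSMUSG00000053113, chr11:117966079-117970047), the gene of the inhibitor that binds gp130, changed most among the 10 genes in each comparison with PBS. It stood at 25.2, 25.4 and 24.8 CPM in PBS ears, at 38.6, 50.1 and 42.4 CPM after IL-17A, at 51.1, 51.6 and 41.5 CPM after IL-36γ and at 52.0, 48.8 and 64.8 CPM after the combination. The PBS ears were nearly equal, all 9 cytokine-treated ears were above them, and the 3 cytokine groups overlapped one another. With both cytokines Socs3 reached 2.20 times its PBS level (log2 1.14, adjusted p = 4.78e-05), with IL-36γ the log2 value was 0.94 (adjusted p = 0.000371) and with IL-17A it was 0.80 (standard error 0.12, adjusted p = 0.0117). Without PBS replicate 3 the rise after IL-17A had an adjusted p of 0.0761 at a log2 fold change of 0.78. Leaving out any 1 library kept the rise after IL-36γ and after the combination.

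Cish (ENSMUSG00000032578, chr9:107296026-107302784) encodes another member of the SOCS family, best known as a target and an inhibitor of STAT5. Levels were 34.6, 38.9 and 40.9 CPM in PBS ears, 22.2, 29.95 and 24.1 CPM after IL-17A, 33.0, 28.2 and 28.6 CPM after IL-36γ, and 22.1, 32.4 and 38.1 CPM after the combination. The IL-17A and IL-36γ libraries lay below all PBS libraries, whereas those of the combination spread over the range of both. With IL-17A the log2 difference of Cish from PBS was -0.58 (adjusted p = 0.0484, standard error 0.17), and it was the only member that fell in that group. This call was lost in 9 of the 12 cases in which 1 library was left out, with adjusted p-values between 0.0253 and 0.169, and it held only without PBS replicate 1, combination replicate 1 or combination replicate 3. IL-36γ gave -0.35 (adjusted p = 0.14) and both cytokines -0.30 (adjusted p = 0.164), the latter with an adjusted p of 0.0407 and a log2 value of -0.47 without combination replicate 3. The value for IL-36γ passed with DESeq2 (adjusted p = 0.0032), with library size only as the scaling (0.0488) and in a fit of only the compared groups (0.0374). Its exons share 740 bases with Gm17040 and Gm17041 on the opposite strand.

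Socs1 (ENSMUSG00000038037, chr16:10782240-10785536), the inhibitor best known from interferon signalling, was the least abundant of the 10 genes. Its libraries ranged from 3.91 to 5.43 CPM after PBS, from 4.32 to 5.02 CPM after IL-17A, from 4.54 to 6.95 CPM after IL-36γ and from 4.61 to 5.15 CPM after the combination, so that all groups overlapped. The log2 fold change of the combination was 0.07, with a 95% interval of -0.33 to 0.46, which leaves room for a change of either sign. The rise of Socs3 by 1.14 lies outside that interval.

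Among the receptor chains of the IL-6 family, Osmr (ENSMUSG00000022146, chr15:6813577-6874969), the chain that oncostatin M uses with gp130, rose in the combination. Its level was 56.3, 69.6 and 61.5 CPM in PBS ears, 76.9, 70.0 and 58.8 CPM after IL-17A, 70.1, 82.3 and 73.4 CPM after IL-36γ, and 96.3, 92.5 and 91.1 CPM after the combination. The combination was above all other 9 libraries, and the lowest IL-36γ ear was just above the highest PBS ear. With both cytokines the log2 rise was 0.58 (standard error 0.10, adjusted p = 0.000971), a call kept whichever library was left out, whereas IL-36γ gave 0.27 (adjusted p = 0.0709) and IL-17A 0.14 (adjusted p = 0.4). With IL-36γ alone it passed when PBS replicate 2 (adjusted p = 0.0485) or IL-17A replicate 3 (adjusted p = 0.0432) was left out.

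Il6ra (ENSMUSG00000027947, chr3:89864059-89913196), the chain specific for IL-6, ranged from 108 to 128 CPM after PBS, from 105 to 119 CPM after IL-17A and from 101 to 131 CPM after IL-36γ. In the combination it stood at 83.9, 95.2 and 105 CPM, below all PBS libraries. Its log2 level fell there by 0.30 (standard error 0.11, adjusted p = 0.0498), a call that was lost in 7 of the 12 cases with 1 library left out, with adjusted p-values of up to 0.187 without combination replicate 1 or PBS replicate 2. The libraries whose absence ended it also included PBS replicate 3, IL-17A replicates 2 and 3, IL-36γ replicate 3 and combination replicate 2. Exons of Il6ra share 242 bases with Gm42809 on the opposite strand. Il6st (ENSMUSG00000021756, chr13:112464070-112510086), the shared chain gp130, ranged from 320 to 406 CPM over all 12 libraries. On the log2 scale IL-17A gave 0.10 over PBS (95% interval -0.07 to 0.28), IL-36γ 0.01 (-0.17 to 0.18) and both cytokines -0.12 (-0.30 to 0.05). None of these passed the test.

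Of the chains for IL-20 and IL-22, Il20ra (ENSMUSG00000020007, chr10:19712570-19760053), which pairs with the product of Il20rb to bind IL-19, IL-20 and IL-24, showed the largest decrease. It was measured at 33.7, 43.0 and 37.9 CPM in PBS ears, 34.3, 30.9 and 33.4 CPM after IL-17A, 38.8, 30.2 and 38.0 CPM after IL-36γ, and 19.0, 20.4 and 29.9 CPM after the combination. The 3 combination ears were below all other libraries, the highest of them by a small margin. Against PBS it fell by 0.72 on the log2 scale with both cytokines (standard error 0.16, adjusted p = 0.00326) and passed in all 12 cases with a library left out, while IL-17A gave -0.22 (adjusted p = 0.372) and IL-36γ -0.10 (adjusted p = 0.654).

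Il20rb (ENSMUSG00000044244, chr9:100457719-100486788) ranged from 150 to 169 CPM after PBS and stood at 142, 124 and 140 CPM after the combination, below all PBS ears. Its log2 fold change of -0.24 (adjusted p = 0.0689) missed the threshold. It passed with DESeq2 (adjusted p = 0.014), with library size only as the scaling (0.0102), with a filter of 10 counts in every library (0.048) and without IL-17A replicate 1 (0.0358). Il22ra1 (ENSMUSG00000037157, chr4:135728172-135752140) encodes a chain of the IL-22 receptor that also pairs with the product of Il20rb. It stood at 53.9, 39.5 and 40.3 CPM in PBS ears, 30.7, 35.5 and 46.2 CPM after IL-17A, 63.8, 49.5 and 52.5 CPM after IL-36γ, and 55.7, 49.5 and 49.1 CPM after the combination. One PBS ear lay within the range of the IL-36γ ears, and the IL-17A ears overlapped PBS. None of its differences from PBS passed: IL-17A gave -0.25 on the log2 scale (adjusted p = 0.303), IL-36γ gave 0.31 (adjusted p = 0.155) and both gave 0.21 (adjusted p = 0.307). Without PBS replicate 1 the value for IL-36γ was 0.47 (adjusted p = 0.031).

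**Figure D2:**
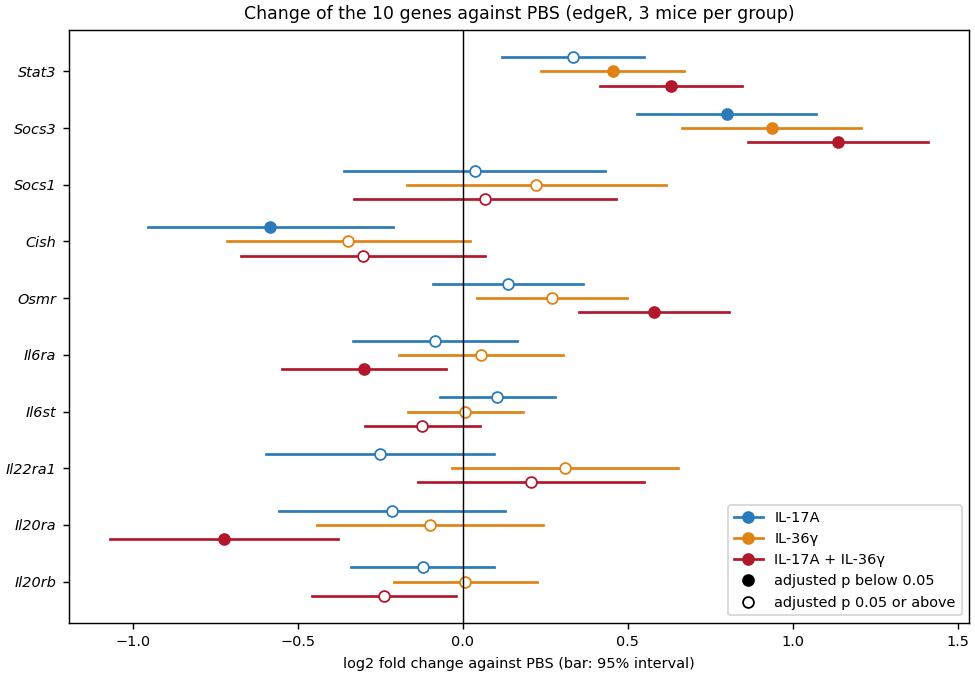
Log2 fold change of the 10 genes against PBS (horizontal axis) after IL-17A, IL-36γ and the combination; bars are 95% intervals from the edgeR fit and filled points have an adjusted p-value below 0.05. Socs3 lies farthest to the right, at 0.80, 0.94 and 1.14, and Il20ra in the combination farthest to the left, at -0.72.

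To compare the genes with each other, CPM was divided by the exon length of each gene in kb. In PBS ears the order ran from Il20rb with 38.0 CPM per kb (SD 2.22, n = 3) and Il6st with 32.6 (SD 2.75) over Stat3 with 18.4, Il22ra1 with 17.3, Il20ra with 15.7 and Il6ra with 13.5 to Socs3 with 8.69, Cish with 5.94, Osmr with 5.15 and Socs1 with 1.58. Libraries of the neighbours Stat3 and Il22ra1, Il22ra1 and Il20ra, Il20ra and Il6ra, and Cish and Osmr overlapped, so that their order was not resolved. Socs3 moved from place 7 in PBS ears to place 4 after IL-17A and place 5 after IL-36γ and after the combination, where it had 19.1 CPM per kb beside 20.01 for Il22ra1. Its libraries overlapped those of Il22ra1, Il20ra and Il6ra after IL-17A, those of Il20ra and Il6ra after IL-36γ and those of Il22ra1 after the combination, so that its place among these genes was not resolved. With the length of the longest transcript in place of all exons, Osmr stood at place 7 and Socs3 at place 8 in PBS ears.

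The question of what each cytokine added to the other was put to the same fit. Added to IL-17A, IL-36γ changed 5 of the 10 genes, beside 32.7% of all genes tested, and 0 were called with the fold change threshold, beside 8.95%. Osmr was higher by 0.44 on the log2 scale (adjusted p = 0.0075), Il22ra1 by 0.46 (adjusted p = 0.0446) and Stat3 by 0.30 (adjusted p = 0.0375), while Il20ra fell by 0.51 (adjusted p = 0.0294) and Il6st fell by 0.23 (adjusted p = 0.0473). For each of the 5 genes the combination and IL-17A libraries did not overlap, as for 48.4% of all genes tested. The call of Osmr was kept in all 12 cases with a library left out. The calls of the others were not: Il6st was lost in 10 cases (up to 0.203), Il22ra1 in 7 (up to 0.136), Il20ra in 5 (up to 0.113) and Stat3 in 3 (up to 0.16), each value being an adjusted p. For Stat3 these were the cases without IL-17A replicate 2, IL-17A replicate 3 or combination replicate 1. For Il20ra they were those without any of the 3 IL-17A replicates and without combination replicate 1 or 2. For Il22ra1 they were those without IL-17A replicate 1 or 2, IL-36γ replicate 2 or 3 or any combination replicate, and Il6st passed only without PBS replicate 1 or IL-17A replicate 3. Socs3 missed the threshold at 0.34 (adjusted p = 0.0536) and passed in 4 cases, without IL-17A replicate 2 (0.0252), IL-36γ replicate 1 (0.0484), IL-36γ replicate 3 (0.0349) or combination replicate 2 (0.031), again as adjusted p. Cish, with adjusted p = 0.232, passed without combination replicate 1 (adjusted p = 0.028).

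Added to IL-36γ, IL-17A changed 0 of the 10 genes by edgeR, beside 0.0206% of all genes tested at the adjusted p-value and 0.0103% with the fold change threshold. Before adjustment 4 genes had a p-value below 0.05, namely Osmr, Il6ra, Il20ra and Il20rb, beside 15.1% of all genes, and the DESeq2 test passed 2, Osmr and Il20ra, beside 5.47%. The log2 difference was 0.31 for Osmr (95% interval 0.08 to 0.54, adjusted p = 0.209) and -0.62 for Il20ra (-0.97 to -0.28, adjusted p = 0.127). The libraries of the groups were apart in both, and also for Il6st and Il20rb, beside 20.6% of all genes. Without combination replicate 3 the adjusted p of Il20ra was 0.0243. For Socs3 the difference was 0.20 (-0.07 to 0.47) and for Stat3 0.18 (-0.04 to 0.39), so that a further rise of either gene by IL-17A was not detectable in 3 ears per group.

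IL-36γ and IL-17A were also set against each other, and 0 of the 10 genes passed by edgeR, beside 7.98% of all genes and 1.61% with the fold change threshold. Among the members Il22ra1 alone had an unadjusted p-value below 0.05, beside 25% of all genes, and it alone passed with DESeq2, beside 19.5%. It was higher after IL-36γ by 0.56 on the log2 scale (adjusted p = 0.0509). Its libraries were apart between the groups, as were those of 31.7% of all genes. It passed when PBS replicate 1 (adjusted p = 0.0223) or IL-17A replicate 3 (adjusted p = 0.0257) was left out. The difference of Socs3 was 0.14 (95% interval -0.13 to 0.41) and that of Stat3 0.12 (-0.10 to 0.34).

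The interaction asks whether the change by IL-17A differed between ears with and without IL-36γ. By edgeR 0 of the 10 genes passed, beside 0.551% of all genes tested, or 107 genes, a number that rested on single libraries and was 1534 without PBS replicate 1 and 1 without IL-36γ replicate 1. Socs3 and Cish were the 2 members with an unadjusted p-value below 0.05, beside 22.5% of all genes. DESeq2 passed 1 member, Socs3, beside 9.53% of all genes, so that this count lies at the share of all genes. The single changes of Socs3 sum to 1.73 on the log2 scale and the combination gave 1.14, an interaction of -0.60 (standard error 0.17, adjusted p = 0.0906; DESeq2 -0.57, adjusted p = 0.0316). On the linear scale the additive expectation of Socs3 was 66.6 CPM and the mean of the combination 55.2 CPM, a difference of -11.4 CPM (standard error 6.78). For Cish the sum was -0.93 and the combination -0.30, an interaction of 0.63 (adjusted p = 0.158). Stat3 had a sum of 0.79 beside 0.63, Osmr 0.41 beside 0.58 and Il20ra -0.32 beside -0.72, with adjusted p-values of the interaction of 0.525, 0.504 and 0.296.

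**Figure D3:**
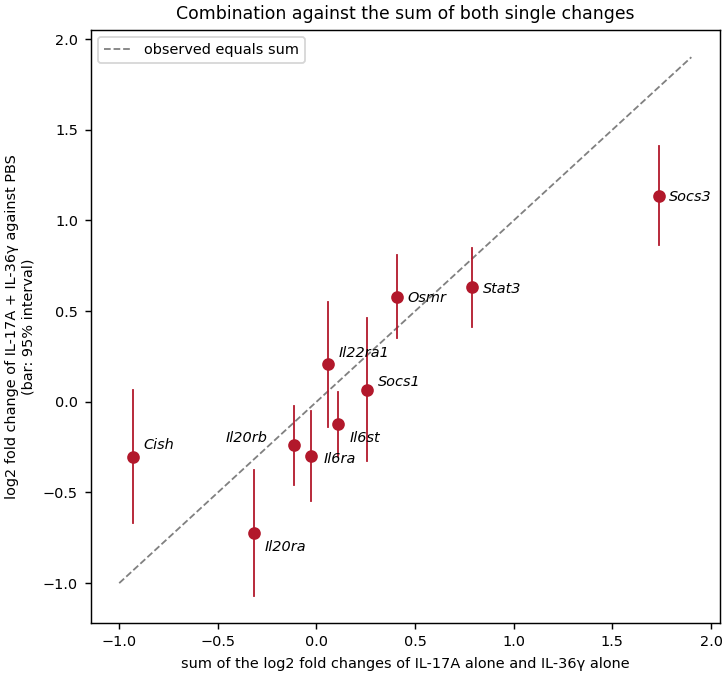
Log2 fold change of the combination against PBS (vertical axis, bars are 95% intervals of that value) set against the sum of the log2 fold changes of both single injections (horizontal axis) for the 10 genes; the dashed line marks equality. Socs3 lies below the line at 1.73 and 1.14, and Cish above it at -0.93 and -0.30, and no gene passed the test of the interaction in edgeR.

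The other genes of the pathway were counted by direction, and of all genes tested 7.44% rose and 3.49% fell after IL-17A, 17.3% rose and 11.1% fell after IL-36γ, and 23.7% rose and 20.9% fell after the combination. A list of cytokines that signal through receptors of the IL-6 and IL-10 families and related chains held 18 genes, among them Csf3, Lep, Il10 and Il21, which use receptors other than the 6 chains described above. Of this list 14 genes were tested, and 2 rose after IL-17A, 5 rose and 1 fell after IL-36γ, and 7 rose and 3 fell after the combination. Il6, the ligand of the chain encoded by Il6ra, rose from 0.267 ± 0.0328 CPM (SD, n = 3) in PBS ears to 3.64 ± 2.21 CPM in the combination, a log2 fold change of 3.75 (adjusted p = 0.000152). Osm, which encodes oncostatin M, had a log2 fold change of 2.12 (adjusted p = 0.00515) in the combination and was named after its values were seen, as the ligand of the chain that rose. Il22 held 1 count in the 3 PBS libraries together, 1 with IL-17A, 5, 39 and 11 counts in the 3 IL-36γ libraries and 18, 13 and 9 in those of the combination, so that 1 library held most of the IL-36γ counts. Its ratio to PBS in the combination was 50.4 with a counting interval of 8.54 to 2040. Il19, a ligand of the chain pair whose Il20ra part fell, held 6 counts after PBS and 138 after the combination, a ratio of 29.0 (13.0 to 80.3). These intervals cover counting error only. Csf3, which encodes the granulocyte growth factor G-CSF, had a log2 fold change of 3.72 (adjusted p = 0.00556) from PBS counts of 0, 4 and 0. The ligand genes that fell in the combination were Lep, Ctf1 and Il11, also named after their values were seen. Their log2 fold changes were -2.35, -0.83 and -0.76. Il31 was at 0 in all 12 libraries, where a count of 3 is the limit a count of 0 allows.

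Of 16 other receptor genes 3 rose after IL-17A, 9 rose and 2 fell after IL-36γ, and 8 rose and 5 fell after the combination. Csf3r, the receptor of G-CSF found on neutrophils, rose from 4.02 ± 1.77 to 76.0 ± 24.7 CPM, a log2 fold change of 4.24 (adjusted p = 2.99e-05). Il21r and Il10ra, receptor chains of leukocytes, rose by 2.67 and 1.29 on the log2 scale in the combination. Among the receptor genes that fell there were Lifr, Il11ra1, Cntfr and Lepr, named after their values were seen. Their log2 fold changes were -0.38, -0.72, -1.07 and -0.83.

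Among 10 genes of kinases and other STATs, 1 rose with IL-17A, 4 with IL-36γ and 5 with both, and 0 fell in any of the 3 groups. The transducers Stat4 and Stat2 had log2 fold changes of 3.37 and 0.78 in the combination, and the leukocyte kinase Jak3 had 0.39 (adjusted p = 0.0333). The value of Stat4 rests on PBS counts of 6, 5 and 4. Stat2, known from interferon signalling, rose after IL-36γ too, by 0.60 on the log2 scale. Of 15 other negative regulators, 4 rose and 2 fell after IL-36γ, and 5 rose and 3 fell after the combination, while the lowest adjusted p after IL-17A was 0.0577, that of Ptprc. Those with the largest changes were the leukocyte phosphatases Ptprc and Ptpn6, which rose by 1.48 and 0.86 in the combination, and Socs2 and Socs7, which fell by 0.70 and 0.42. The SOCS genes thus differed in direction there, since Socs3 rose while Socs2 and Socs7 fell.

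Of 24 genes known as targets of STAT3, 23 were tested, and 8 rose after IL-17A, 11 rose and 1 fell after IL-36γ, and 11 rose and 3 fell after the combination. The median log2 fold change of the tested targets was 0.41, 0.31 and 0.48, beside 0.04, -0.02 and -0.03 for all genes. Lcn2, an antibacterial protein that binds iron carriers, rose from 2.51 ± 0.927 to 106 ± 10.2 CPM in the combination, a log2 fold change of 5.40 (adjusted p = 7.08e-07). Timp1, an inhibitor of matrix metalloproteinases, had 3.46 and the transcription factor Batf 2.01 on the log2 scale, and Reg3g, an antibacterial lectin, had 5.01 from PBS counts of 0, 4 and 0. Several of these genes are also targets of other factors and are expressed by leukocytes. In the combination 9 of the tested targets passed in neither direction. The list was chosen with earlier results of these data known, and the named genes are those with the largest changes. Its counts, its median and the named genes are therefore descriptions, and the activity of STAT3 was not tested.

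**Figure D4:**
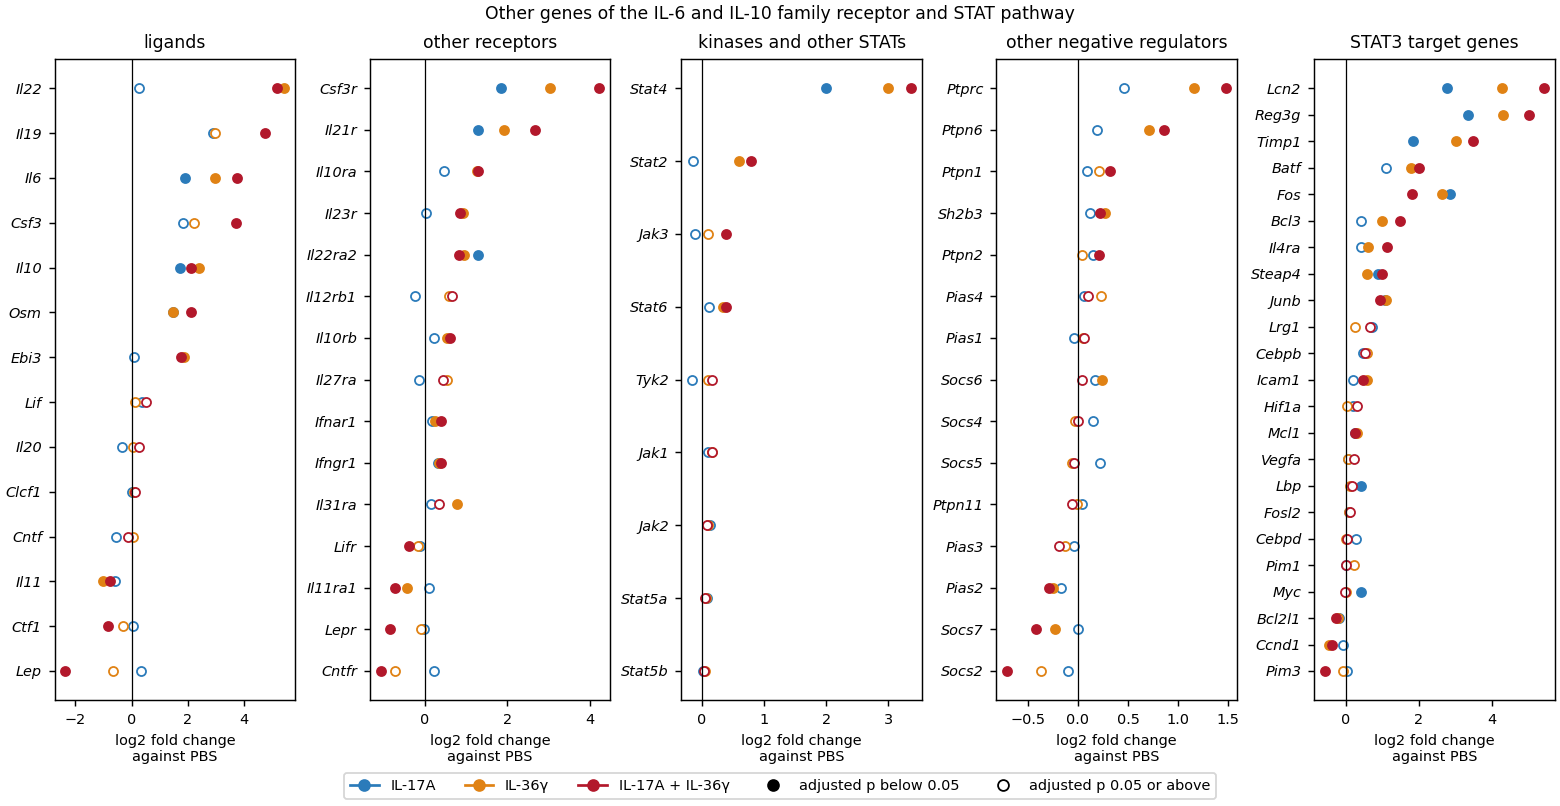
Log2 fold change against PBS (horizontal axis) of tested genes of 5 lists of the pathway, one panel per list, after IL-17A, IL-36γ and the combination; filled points have an adjusted p-value below 0.05. Each panel is sorted by the value of the combination, with Lcn2 at 5.40 and Csf3r at 4.24 at the top of their panels and Socs2 at -0.70 at the bottom of its panel. The fitted values of Il22, Il19, Csf3, Reg3g and Stat4 rest on few counts in PBS ears.

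Markers of several cell types also differed between the groups. The summed neutrophil markers ranged from 17.5 to 94.1 CPM after PBS, from 379 to 860 CPM after IL-17A, from 2258 to 4803 CPM after IL-36γ and from 7550 to 9957 CPM after the combination, and 7 of 7 rose in the combination. Most of this sum came from S100a8 and S100a9, which other cells including keratinocytes also express, with means of 3359 and 4975 CPM in the combination, whereas Cxcr2 had 42.3 CPM and Ly6g 0.67 CPM there, the latter being at 0 in the PBS libraries. The macrophage and monocyte markers ranged from 622 to 729 CPM after PBS, from 998 to 1298 CPM after IL-17A, from 1529 to 1672 CPM after IL-36γ and from 1453 to 1604 CPM after the combination, and 7 of 7 rose after IL-36γ and after the combination. For keratinocytes the sum was 22822 to 24230 CPM after IL-17A, 26407 to 34963 CPM after IL-36γ and 32313 to 37952 CPM after the combination, with 3 of 8 markers up and 1 down in the last. Adipocyte markers fell in the combination, 4 of 4, from 69.0 to 109 CPM after PBS to 18.5 to 45.5 CPM, and so did 3 of 3 cartilage markers tested, from 158 to 243 CPM to 94.4 to 127 CPM. Of the other lists, 3 of 7 T cell markers rose and 2 fell in the combination. The T cell sum was 25.1 to 26.6 CPM there and 29.7 to 32.9 CPM after PBS. In the combination 2 of 5 fibroblast, 2 of 4 endothelial and 1 of 6 skeletal muscle markers fell, the muscle sum being 200 to 1069 CPM there. Lep, whose product leptin signals through STAT3, stands in both the ligand and the adipocyte list. No marker of these lists was at 0 in all libraries. Their part in the changes of Socs3, Stat3, Osmr, Il20ra and the genes of the pathway was not tested.

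The genes whose level over the 12 libraries was most like that of Socs3, by Pearson's r of log2 CPM, were Krt84 (0.97), a hard keratin, Hbegf (0.97), a ligand of the EGF receptor, Ndufc1 (0.96), D6Wsu163e (0.96) and Ap1s3 (0.95). For Stat3 they were Coa5 (0.99), Eif4ebp1 (0.98), Cox5b (0.98), Cuta (0.98) and Rpl41 (0.98). The 12 points share the 4 groups and the scaling of the libraries, and the genes were picked as the highest of all genes tested, so that these values are descriptions. Krt84 had log2 fold changes of 1.55, 1.95 and 2.43 and Hbegf of 0.99, 1.28 and 1.23 after IL-17A, IL-36γ and the combination, beside 0.80, 0.94 and 1.14 for Socs3.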

How the data were processed

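RNA of whole mouse ears was measured by RNA-Seq in 12 libraries, 3 mice in each of 4 groups, assigned from the sample titles. According to the methods and the submitters' processing notes, the authors prepared stranded total RNA libraries, mapped the reads to mm10 by STAR 2.5.2b and summed them over Ensembl genes by featureCounts of Subread 1.5.1. The deposited table holds raw counts per gene. The authors' tables of log2 fold changes and p-values from DESeq2 1.30.0 were used for the pairing of symbols with identifiers only.

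The main tool was edgeR 4.0.16 under R 4.3.3, and DESeq2 1.42.0 served for an alternative. Genes were kept by filterByExpr (minimum count 10), libraries scaled by TMM (factors 0.9284 to 1.11), and 4 group means were compared by edgeR's quasi-likelihood test in 1 fit, with Benjamini-Hochberg adjustment over 19408 genes. Standard errors are the log2 fold change divided by the root of the F statistic. The fit was tested on simulated data. Lengths and positions are from GENCODE vM21 (GRCm38). That the mice are separate animals is stated. The p-values rest on the spread between mice within groups, which was estimated over all 4 groups in 1 fit. By the replicate numbers, libraries deviated together in the combination and IL-36γ groups (r from 0.13 to 0.24 in 3 pairs, from -0.26 to 0.08 across numbers), which is a check from the data, and not in all pairs of the other comparisons. No library was a copy of another of its own group (chi-square per gene 7.09 to 64.0 over 12 pairs). Pairs from different groups were not compared in this way.

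The members, the lists and the tests were chosen with earlier results of these data known. Pathway genes whose fold changes are given outside the rule below are marked as named after their values were seen. Named are all members and, of each pathway list, the 4 genes with the largest absolute log2 fold change among those past the threshold in the combination, plus any gene at 0 throughout, except 2 genes that are part of the counts and are not reported here by name or in the figures; like genes are the 5 with the highest r for Socs3 and Stat3, with a prior count of 2. Alternatives were DESeq2-type size factors, library size only, no filter, 10 counts in every library, only the compared groups, no threshold on the fold change, a block for the replicate number, the likelihood ratio test of DESeq2, another gene length and each library left out in turn.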

Additional observations from a re-analysis of the deposited data

How the results depend on the processing

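Without the fold change threshold the number of the 10 genes called against PBS went from 0 to 2 after IL-17A, from 0 to 2 after IL-36γ and from 1 to 5 after the combination, and from 0 to 5 for the combination against IL-17A. With library size only as the scaling it was 0 for the combination against PBS, since the log2 fold change of Socs3 was 0.99 (adjusted p = 0.000126). This scaling moved the median of all genes to -0.13, -0.16 and -0.17 after IL-17A, IL-36γ and the combination, and Socs3 lay above that median by about the same distance as with TMM. DESeq2 called 1 interaction, that of Socs3. With 1 library left out, the number lay between 0 and 1 for IL-36γ against PBS (1 without IL-36γ replicate 3, Socs3 at a log2 fold change of 1.03), was 1 for the combination against PBS in all 12 cases and 0 for the other comparisons. In a fit of only the compared groups Socs3 (adjusted p = 0.0574) and Cish (adjusted p = 0.0749) missed the threshold after IL-17A, and Il6ra (adjusted p = 0.0501) in the combination. Of the combination against IL-17A, Stat3 missed it in that fit (adjusted p = 0.0641), Il6st missed it with DESeq2-type size factors, with library size only, without a filter and with 10 counts in every library (adjusted p = 0.0578, 0.141, 0.093 and 0.0528), and Socs3 passed in the same 4 settings (adjusted p = 0.0457, 0.0479, 0.0478 and 0.047). With library size only, Il6st in the combination passed against PBS (adjusted p = 0.0383). Il20ra passed in the combination against IL-36γ without a filter (adjusted p = 0.0358), and Il22ra1 passed in IL-36γ against IL-17A with library size only (adjusted p = 0.0388), without a filter (0.0142), with 10 counts in every library (0.0431) and with the compared groups only (0.0496). Stat3, Socs3, Osmr and Il20ra in the combination against PBS passed under every alternative run. No member that passed in either fit changed sign under any of them.

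The correlation of deviations between libraries of the same replicate number ran from -0.20 to 0.35 and was above 0.1 in 9 of 18 pairs, and 8 of 12 libraries correlated best with their own number, a hint from the data at a shared origin that the labels do not state. Only for the combination against IL-36γ did all 3 pairs exceed 0.1. With the replicate number as a block, the number of members called stayed at 0, 0 and 1 against PBS, and 0 members passed in the combination against IL-36γ and in the interaction, although the number of all genes past the threshold in the interaction went from 107 to 883. With that block Stat3 after IL-17A passed at an adjusted p of 0.016 and Il6ra in the combination missed the threshold at 0.0603, and no other member's call changed. Totals of 25293468 or more counts per library left all members well above the filter, and with 3 mice per group differences such as those of Socs1 (95% interval -0.33 to 0.46 in the combination) were not detectable.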
